A study of Mus musculus with 54 samples.

Results

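The genes of the respiratory chain and the ATP synthase were taken by symbol from the deposited count table of the mouse suprachiasmatic nucleus (SCN). Nuclear rows were those named Nduf for complex I (letters a, b, c, s and v), Sdha to Sdhd for complex II, Uqcr for complex III, Cox4 to Cox8 for complex IV and Atp5 for complex V. Rows of the mitochondrial genome were those named mt-Nd, mt-Cytb, mt-Co or mt-Atp. Symbols ending in -ps were left out, and 102 rows remained. Of these, 100 had at least 1 read in more than 6 of the 18 libraries, out of 18941 genes that passed the same filter and 30031 rows in all. The rows of *Cox8c*, a testis form of a complex IV subunit, and of the pseudogene *Cox6c2* held 0 reads in this table and did not pass. For *Cox6c2* a further deposited table of normalized signal did hold reads. The 92 nuclear rows comprised 36 of complex I, 4 of complex II, 8 of complex III, 17 of complex IV (with *Ndufa4*), 15 of complex V, 8 assembly factors that share the prefixes, *Atp5s* and 3 pseudogene-type rows (*Ndufa11b*, *Ndufb4c* and *Ndufs6b*). The 8 mitochondrial rows were *mt-Nd3*, *mt-Nd4l*, *mt-Nd5*, *mt-Nd6*, *mt-Cytb*, *mt-Co1*, *mt-Co2* and *mt-Co3*.

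The SCN, the master circadian clock of the brain, was cut by laser from frozen sections of male C3H/HeH mice of 10 to 12 weeks kept under a 12:12 light/dark cycle. Mice were taken at ZT2, ZT6, ZT10 (light) and ZT14, ZT18, ZT22 (dark), where ZT (Zeitgeber time) counts hours from lights on. Each timepoint had 3 replicates (A to C), each a pool of 5 mice, and strain, sex and housing were the same throughout. RNA was amplified before library preparation, and 3 lanes per replicate (54 lane samples) had been combined into 18 libraries.

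Between 15412981 and 35820945 reads per library were counted on genes, and levels are given as CPM, reads scaled to library size with edgeR's TMM factors. In the study's principal component plot, drawn by timepoint and sequencing batch, libraries lie as neighbouring pairs of timepoints (ZT22 and ZT2, ZT6 and ZT10, and also ZT14 and ZT18). The batch of each library is not given in the sources used here, so time and batch cannot be told apart between those pairs. All 9 SCN neuron markers looked up were detected, and the median level of the lowest of them was 34.9 CPM. Their summed level was 4999 to 5582 CPM (ZT6), 4172 to 4806 (ZT10), 1578 to 2157 (ZT14), 2179 to 2582 (ZT18), 2493 to 2952 (ZT22) and 2924 to 4544 (ZT2), so that it was highest at ZT6 and lowest at ZT14. The summed level of 8 astrocyte markers was 2952 to 3916 CPM at ZT6, 3231 to 3377 at ZT10, 4123 to 5611 at ZT14 and ZT18, and 6422 to 8632 at ZT22 and ZT2. The sum of 7 oligodendrocyte markers was 4784 to 6128 CPM at ZT14 and ZT18 and 1302 to 4447 CPM at the other timepoints. The sum of 7 neuronal markers was 3858 to 4443 CPM at ZT6 and ZT10, 3861 to 6553 at ZT14 and ZT18 and 5677 to 7535 at ZT2 and ZT22. These lists, that of SCN neurons included, moved with the pairs of timepoints that the results below turn on, and their part in those results was not tested. In tissue RNA, fewer cells of a type and less RNA per cell cannot be told apart.

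The respiratory chain sits in the inner mitochondrial membrane. Complex I accepts electrons from NADH and complex II from succinate, complex III passes them to cytochrome c, and complex IV hands them to oxygen, while complexes I, III and IV pump protons that drive ATP synthesis by complex V. Complexes I, III, IV and V are built from subunits of both genomes, so that transcripts made in the nucleus and in the mitochondrion have to be supplied together, whereas complex II is encoded wholly in the nucleus and is also an enzyme of the citric acid cycle. Neurons draw most of their ATP from this pathway.

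Most of these genes varied over the day. Change with time was called at q under 0.05, where q is the Benjamini–Hochberg adjusted p from edgeR's quasi-likelihood test across the 6 timepoints. It was called in 71 of 92 nuclear rows (77.2%) and 7 of 8 mitochondrial rows, or 5 of 6 without *mt-Co2* and *mt-Co3*, which had few reads. The share was 44.0% of all genes tested and 54.3% of the genes with a mean of at least 1 CPM. Among genes with at least 10 counts in every replicate it was 68%, and 76 of the 89 nuclear rows kept there were called. The count was 29 of 36 for complex I, 3 of 4 for complex II, 7 of 8 for complex III, 12 of 17 for complex IV, 13 of 15 for complex V, 4 of 8 for the assembly factors and 3 of 3 for the pseudogene-type rows, while *Atp5s* had q = 0.231. The mean was highest at ZT6 in 40 and at ZT10 in 31 of the 92 nuclear rows, and at ZT6 in 6 of the 8 mitochondrial rows. It was lowest at ZT14 in 41 nuclear rows. Over the 18941 genes tested the mean was highest at ZT6 in 3745 and at ZT10 in 2643, and lowest at ZT14 in 2531. Cycling was defined as change with time together with JTK_CYCLE p under 0.05 for a 24 hr period. It was called for 50 nuclear and 6 mitochondrial rows, beside 29.9% of all genes tested. Without *mt-Co2* and *mt-Co3*, 4 mitochondrial rows cycled, all with their peak at ZT6. Among genes with at least 10 counts in every replicate, 45.4% cycled. Of the 50 nuclear rows, 22 had their JTK_CYCLE peak at ZT6 and 15 at ZT10, while 7 peaked at ZT14, 4 at ZT22 and 2 at ZT2, and the number at ZT18 was 0. Of the 5670 genes that cycled among all tested, 691 peaked at ZT6, 1277 at ZT10 and 1350 at ZT14. Another 574 peaked at ZT18, 1384 at ZT22 and 394 at ZT2. With the libraries of ZT2 and ZT22 left out, 59 nuclear and 4 mitochondrial rows changed with time (20.1% of all genes). Without those of ZT6 and ZT10 there were 43 and 3 (28.6%), and without those of ZT14 and ZT18 there were 52 and 5 (33.7%).

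**Figure D1:**
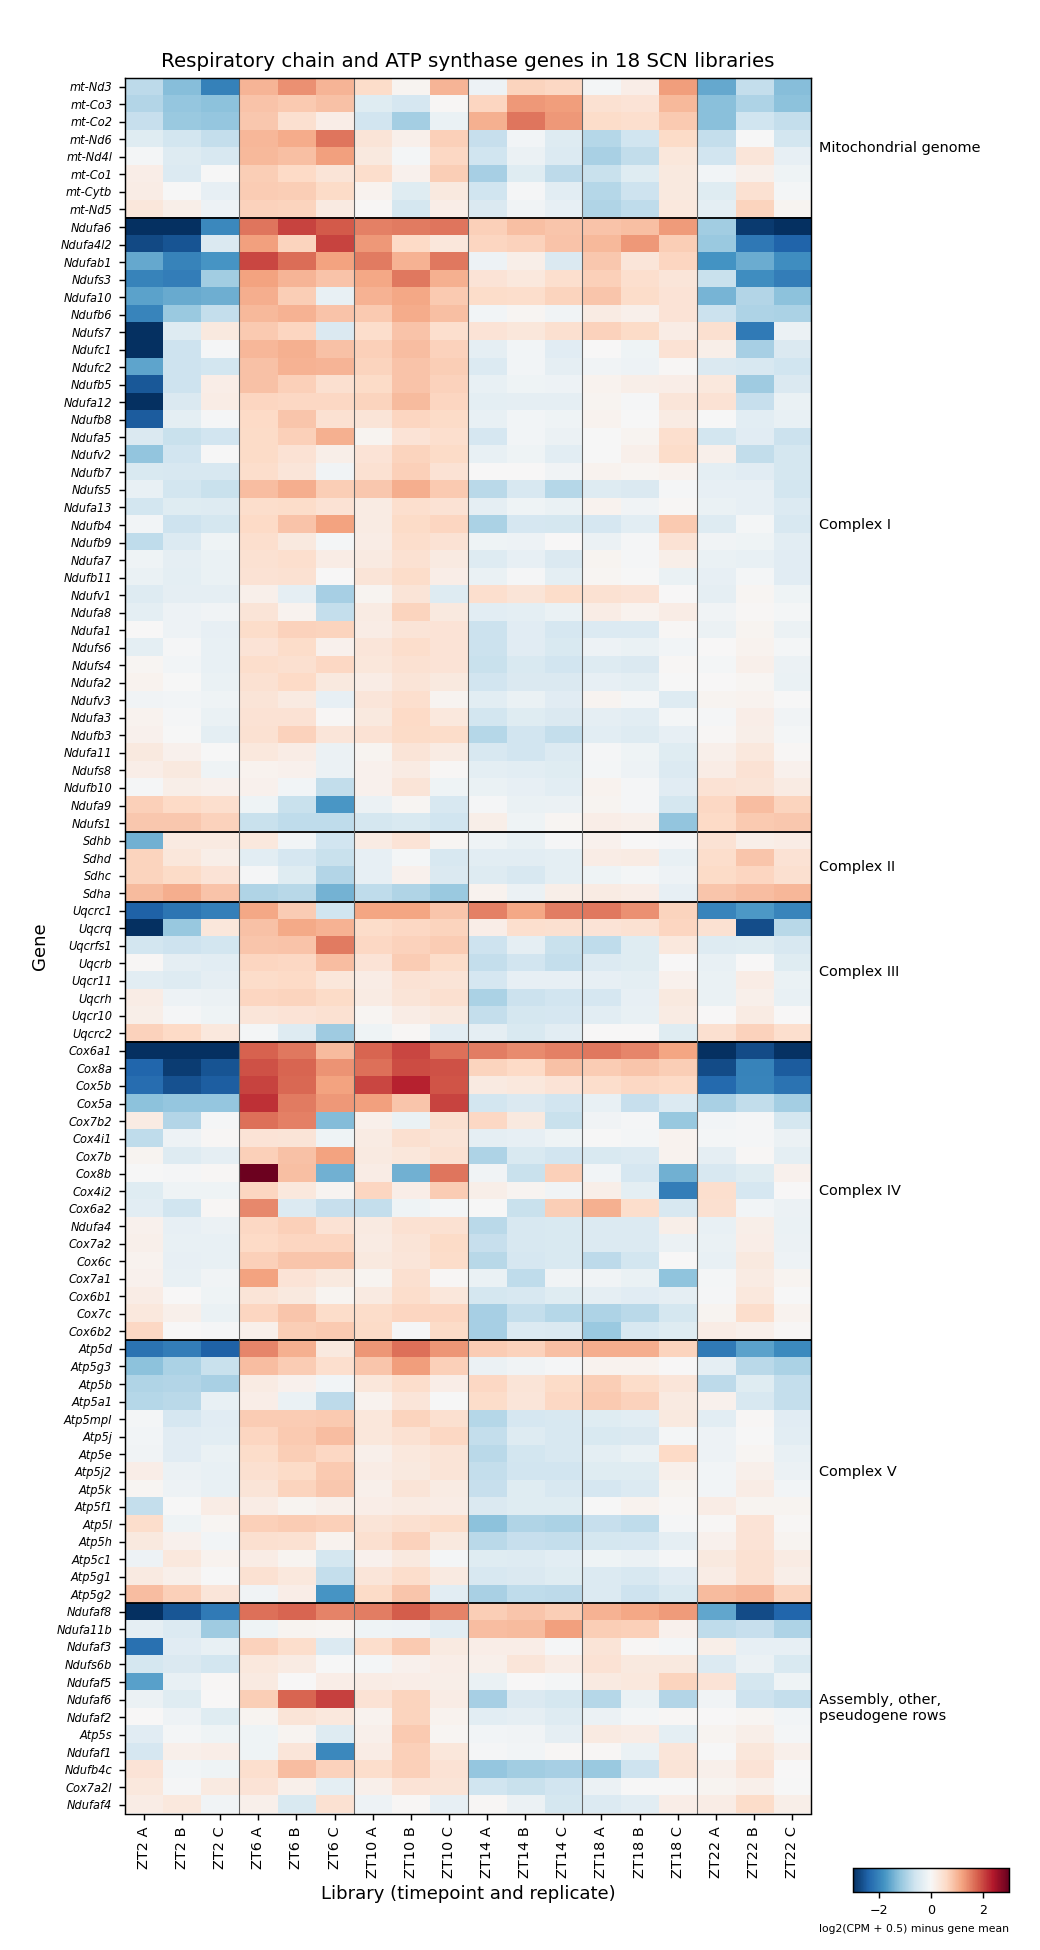
Level of each row of the gene set, except 1 that is not shown (vertical axis, grouped by genome and complex) in the 18 libraries (horizontal axis), as log2(CPM + 0.5) minus the gene's mean over the libraries, with the colour scale ending at -3 and 3. Most rows are red at ZT6 and ZT10, a block of rows in complexes I, III, IV and V is deep blue at ZT2 and ZT22, and *Sdha*, *Sdhc*, *Ndufs1*, *Ndufa9* and *Uqcrc2* show the opposite colours.

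The most common profile among the nuclear rows was a high level at ZT6 and ZT10. In 36 nuclear rows all 6 libraries of ZT6 and ZT10 lay above the 12 others (17 of complex I, 3 of III, 8 of IV, 4 of V, 3 assembly factors and 1 pseudogene-type row), beside 4.78% of all genes tested, and no mitochondrial row did so (0 of 8). In reads recovered from the deposited normalized table the number of nuclear rows was 36, of which 30 were shared with the counts.

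*Cox7c*, a small complex IV subunit, was at 554, 634 and 521 CPM (ZT6), 519.8, 553 and 559.9 (ZT10), 177, 216 and 197 (ZT14), 187, 202 and 246 (ZT18), 374, 508 and 382 (ZT22) and 443, 394 and 310.2 (ZT2). The ZT6 and ZT10 libraries were the highest and those of ZT14 and ZT18 the lowest, with no overlap between either pair and the other 12 libraries. The log2 difference of ZT6 from ZT18 was 1.43 ± 0.17 (SE, q = 4.48e-05). *Atp5j*, coupling factor 6 in the stalk of the ATP synthase, was at 969.9, 1072 and 1194 CPM (ZT6) and 791, 861 and 963 (ZT10) and between 381 and 619 CPM in the 12 other libraries. Its log2 difference was 1.10 ± 0.16 (SE, q = 2.11e-04) for ZT6 against ZT18 and 0.64 ± 0.16 (SE, q = 0.00587) for ZT10 against ZT22. *Ndufs5*, an accessory subunit of complex I, was at 344, 386 and 301 CPM (ZT6), 314, 385 and 311 (ZT10), 102, 128 and 99.6 (ZT14) and 137, 133 and 176 (ZT18). Its ZT2 and ZT22 libraries, at 114 to 153 CPM, lay within the range of those of ZT14 and ZT18. Only the ZT6 and ZT10 libraries stood apart, at 2.56 times the mean of the others. *Uqcrb*, a ubiquinone-binding subunit of complex III, was at 529, 524 and 644 CPM (ZT6), 453, 569 and 493 (ZT10), 345, 279 and 270.3 (ZT2) and 205, 229 and 205 (ZT14). All 3 of its differences 12 hr apart passed, at 0.99 for ZT6 against ZT18, 0.77 for ZT10 against ZT22 and 0.49 for ZT2 against ZT14 (q = 6.41e-04, 0.00202 and 0.0402). *Uqcrfs1*, the Rieske iron-sulphur protein of complex III, was at 111, 113 and 183 CPM (ZT6), 95.3, 101 and 105 (ZT10) and 36.7, 48.02 and 77.3 (ZT18). ZT6 exceeded ZT18 by 1.33 ± 0.24 (SE, q = 0.00107), and ZT18 replicate C was the highest of its 3 replicates. *Cox6c* followed the same course, at 1351, 1474 and 1473 CPM (ZT6), 1013, 1068 and 1211 (ZT10), 464, 588 and 601 (ZT14) and 483, 563 and 838 (ZT18), and differed by 1.19 ± 0.20 (SE, q = 6.51e-04) between ZT6 and ZT18. *Ndufa4*, counted here with complex IV, had a difference of 0.78 ± 0.18 (SE, q = 0.00668) in the counted reads, but 0.19 (q = 0.481) in the recovered reads. *Cox5a*, a nuclear subunit of complex IV, was at 186, 120.02 and 101 CPM (ZT6), 95.4, 72.1 and 165 (ZT10), 27.3, 29.8 and 26.7 (ZT14) and 16.96, 17.7 and 17.6 (ZT2). Its ZT6 and ZT10 libraries lay above all others, and the differences were 2.19 ± 0.27 (SE, q = 6.16e-05) and, for ZT10 against ZT22, 2.39 ± 0.28 (SE, q = 5.47e-06).

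The comparisons of timepoints 12 hr apart showed this at the level of the complexes. Between ZT6 and ZT18, 36 nuclear rows were higher and 4 lower at ZT6, beside 8.74% of all genes higher and 12.0% lower, and 5 of 8 mitochondrial rows were higher. The median log2 difference was 0.50 over the nuclear rows, 0.84 over the mitochondrial rows and -0.18 over all genes tested. By complex the median was 0.49 for I, 0.56 for III, 1.11 for IV and 0.55 for V, and -0.43 for II. Between ZT10 and ZT22, 34 nuclear rows were higher and 6 lower at ZT10 (14.5% and 11.9% of all genes), and 1 mitochondrial row was higher. The medians were 0.46 over the nuclear rows, 0.54 over the mitochondrial rows and -0.02 over all genes, with 0.70 for complex I, 0.61 for III, 0.47 for IV, 0.34 for V and -0.80 for II. Between ZT2 and ZT14 the nuclear rows split, with 22 higher and 21 lower at ZT2 (8.80% and 15.0% of all genes), 3 mitochondrial rows lower and medians of 0.12, -0.04 and -0.05 for nuclear rows, mitochondrial rows and all genes, the mitochondrial median being 0.18 with upper-quartile scaling. Without the rarely read *mt-Co2* and *mt-Co3*, 1 mitochondrial row was lower at ZT2 and the mitochondrial median was 0.19. In total, 13 nuclear rows passed in all 3 of these comparisons, 32 in 2, 20 in 1 and 27 in 0. The same counts were not made over all genes, so how unusual they are cannot be said.

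Transcript length moved with these differences. The median length of the nuclear rows was 795 bases, against 2541 over all tested genes, and 62 of the 92 fell in the shortest quintile of genes. In that quintile the median log2 difference of all genes was 0.11 between ZT6 and ZT18 and 0.56 between ZT10 and ZT22, against -0.12 and -0.37 in the longest quintile. With a smooth trend of length taken out of every library, 22 nuclear rows were higher at ZT6 than at ZT18 and the median was 0.24, beside -0.115 over all genes. For ZT10 against ZT22 the same fit gave 18 higher and 14 lower, with a median of -0.05 over the nuclear rows and of 0.20 for complex I, -0.05 for III, -0.11 for IV, -0.16 for V and -0.97 for II. The median over all genes was -0.07, near that of the nuclear rows. Calls over all genes were not counted in this fit, so how unusual its numbers of called rows are cannot be said. The direction of complexes III, IV and V between ZT10 and ZT22 therefore turned with that offset, while the directions between ZT6 and ZT18 and those of complex II did not.

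**Figure D2:**
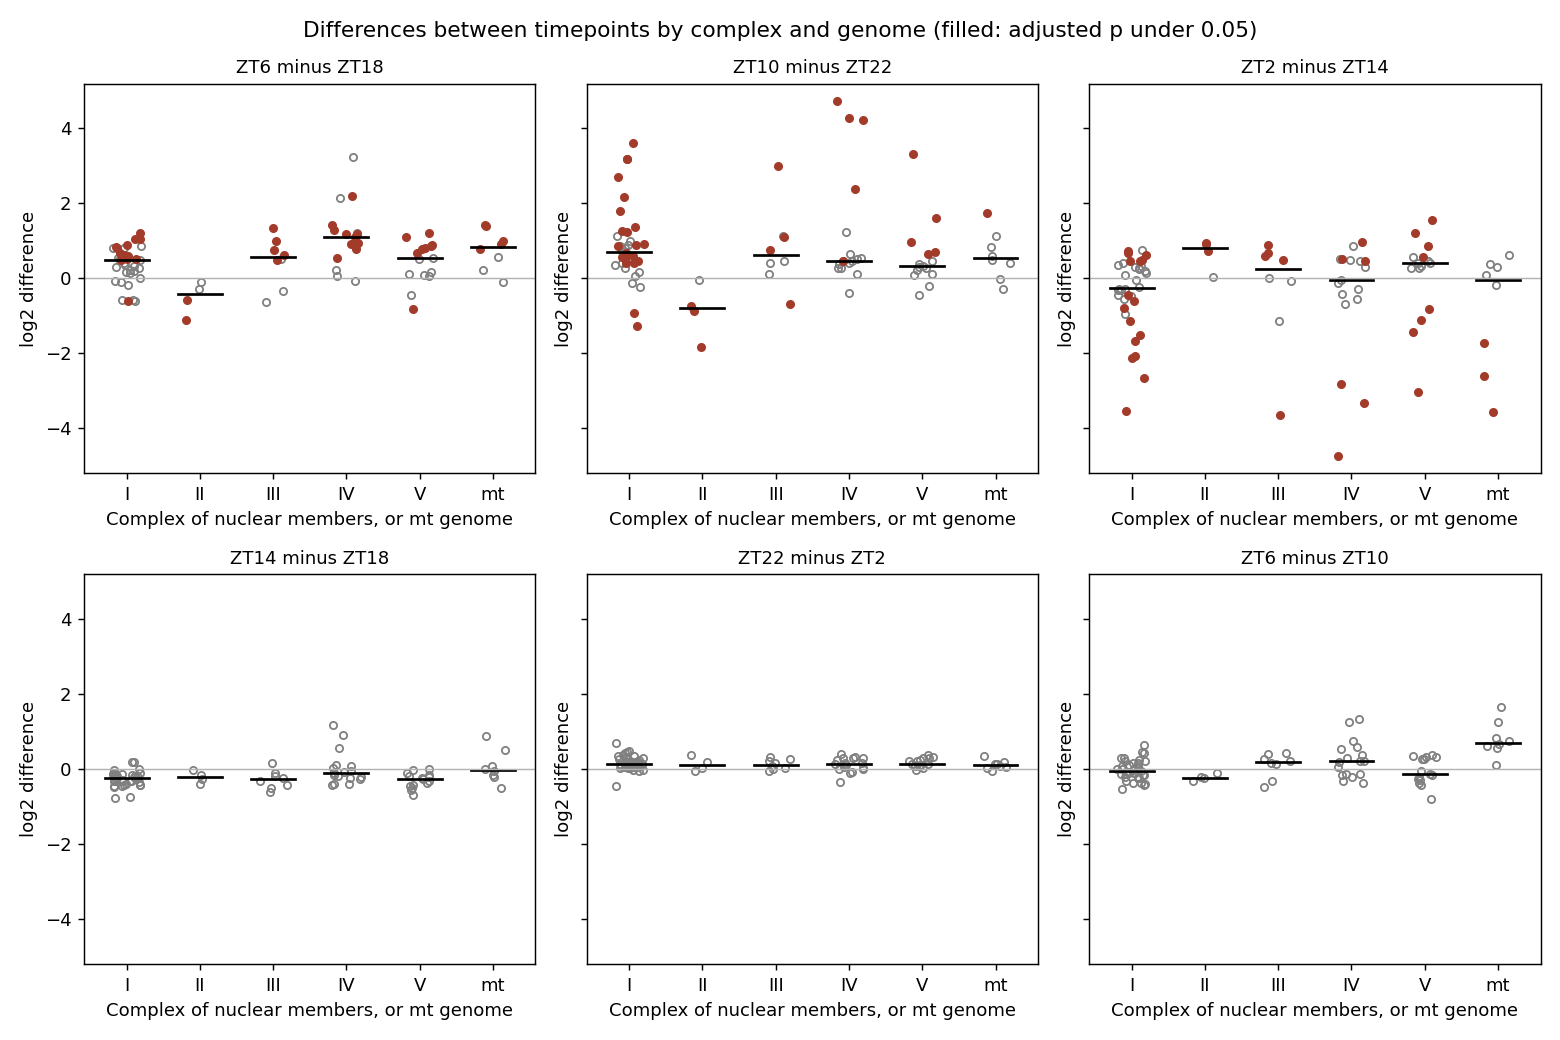
Log2 difference (vertical axis) of each row in 6 comparisons, by complex for nuclear rows of complexes I to V and for the mitochondrial genome (mt). Filled points have q under 0.05 and bars are medians. Complex II lies below 0 in the panels of ZT6 against ZT18 and ZT10 against ZT22 and above it for ZT2 against ZT14, and no point is filled in the lower panels, which compare neighbouring timepoints.

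The largest changes were steep drops at ZT2 and ZT22. All 6 libraries of these timepoints lay below the 12 others in 19 nuclear rows and *mt-Nd3* and *mt-Co3*, beside 7.93% of all genes tested. The 19 were 9 of complex I, 1 of III, 4 of IV, 3 of V, *Ndufaf8* and *Ndufs6b*. The 9 include *Ndufa4l2*, which was placed in complex I by its symbol alone and ranged from 0.170 to 17.2 CPM. Of the 19, *Atp5g3*, *Cox5a*, *Cox5b*, *Cox8a*, *Ndufa6*, *Ndufab1*, *Ndufaf8*, *Ndufb6*, *Ndufc2* and *Ndufs3* also lay above all others at ZT6 and ZT10. *Cox6a1*, the widely expressed form of a complex IV subunit, was at 37.04, 35.9 and 40.5 CPM (ZT2), 42.4, 55.1 and 45.2 (ZT22), 1214, 1066 and 694 (ZT6), 1195, 1428 and 1119 (ZT10), 1041, 953 and 1010.3 (ZT14) and 1061, 993 and 806 (ZT18). No ZT2 or ZT22 library came near the others, whose mean was 24.6 times higher. The log2 difference was 4.71 ± 0.22 (SE, q = 9.55e-11) between ZT10 and ZT22 and -4.73 ± 0.22 (SE, q = 5.10e-10) between ZT2 and ZT14, whereas ZT6 and ZT18 differed by 0.06 ± 0.19 (SE, q = 0.861). *Cox8a*, another small subunit of the same complex, was at 66.4, 47.6 and 56.9 CPM (ZT2), 54.1, 86.9 and 61.6 (ZT22), 1299, 1167 and 885 (ZT6), 1092, 1345 and 1306 (ZT10), 549.6, 528 and 637 (ZT14) and 586, 623 and 579.7 (ZT18). These libraries formed 3 levels, lowest at ZT2 and ZT22 and highest at ZT6 and ZT10. ZT10 exceeded ZT22 by 4.21 ± 0.22 (SE, q = 2.60e-10). *Cox5b*, which binds zinc at the matrix face of complex IV, was at 19.96, 15.7 and 17.5 CPM (ZT2), 19.3, 24.9 and 21.1 (ZT22), 406, 328 and 231 (ZT6), 397, 492 and 369.5 (ZT10), 119, 123 and 132 (ZT14) and 144, 153 and 149 (ZT18). It had the same 3 levels, and its differences were 4.27 ± 0.21 (SE, q = 1.81e-10) for ZT10 against ZT22 and -2.82 ± 0.20 (SE, q = 2.41e-08) for ZT2 against ZT14. *Cox5b* shares 390 bases at 99.2% identity with *Gm11273*, so its level is uncertain to that extent.

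In complex III the core protein *Uqcrc1* was at 47.3, 56.03 and 61.2 CPM (ZT2), 64.3, 77.8 and 64.2 (ZT22), 587, 583 and 459 (ZT10) and 728, 577 and 747 (ZT14), a difference of 2.98 ± 0.34 (SE, q = 3.96e-06) between ZT10 and ZT22. In complex V the δ subunit gene *Atp5d*, part of the central stalk, was at 41.1, 44.9 and 35.1 CPM (ZT2), 43.3, 62.6 and 50.2 (ZT22), 481, 598 and 479.8 (ZT10) and 406, 407 and 303 (ZT18). Both genes were lowest in the 6 libraries of ZT2 and ZT22, and the log2 differences between ZT6 and ZT18 did not pass, at -0.64 and 0.07 (q = 0.150 and 0.870). In complex I, *Ndufab1*, the mitochondrial acyl carrier protein, was at 14.3, 10.1 and 12.1 CPM (ZT2), 11.7, 14.6 and 11.1 (ZT22), 170.5, 135 and 98.1 (ZT6), 126, 86.9 and 127 (ZT10), 37.7, 47.6 and 31.2 (ZT14) and 74.4, 54.2 and 65.6 (ZT18). Its levels at ZT2 and ZT22 were the lowest and those at ZT6 and ZT10 the highest, with differences of 3.18 ± 0.25 (SE, q = 6.21e-08) and -1.68 ± 0.24 (SE, q = 5.94e-05) for ZT10 against ZT22 and ZT2 against ZT14. *Ndufa10*, an accessory subunit, fell by 2.12 on the log2 scale from ZT14 to ZT2 (q = 8.04e-06) and was 4.16 times higher in the 12 other libraries. That ratio was 13.04 for *Ndufa6*, 5.23 for the core subunit *Ndufs3* and 14.4 for the assembly factor *Ndufaf8*. In 5 rows chosen after their values were seen (*Ndufs7*, *Ndufb5*, *Ndufb8*, *Ndufa12* and *Uqcrq*), ZT2 replicate A was the lowest library, at 22.3 to 115 CPM, and ZT22 replicate B the next lowest. These rows did not pass the test of change with time (q between 0.0578 and 0.509).

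Base composition moved with the drops. Across the 92 nuclear rows the log2 ratio of ZT2 and ZT22 to the other libraries had a Spearman rho of -0.27 with transcript GC content (Pearson r = -0.29), and of -0.38 across 9573 tested genes with a mean of at least 10 CPM, as descriptions across genes that share the same libraries. The 19 low nuclear rows had a median GC content of 53.6%, against 50.5% in the 73 others. The ratio of ZT6 and ZT10 to the others had a rho of -0.21 with transcript length in the nuclear rows and -0.31 in the 9573 genes. In the quintile of genes highest in GC the median log2 difference was 0.84 for ZT10 against ZT22 and -1.12 for ZT2 against ZT14. In the lowest quintile the medians were -0.21 and 0.38. With a smooth GC trend taken out of every library 77 nuclear rows changed with time, beside 41.6% of all genes. The nuclear median was 0.68 for ZT6 against ZT18, 0.55 for ZT10 against ZT22 and 0.26 for ZT2 against ZT14. For ZT2 against ZT14 the median of complex I went from -0.26 to 0.19 and of IV from -0.04 to 0.30. Those of II, III and V stayed positive. The part of these properties, of amplification and of sequencing batch in the drops was not tested.

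**Figure D3:**
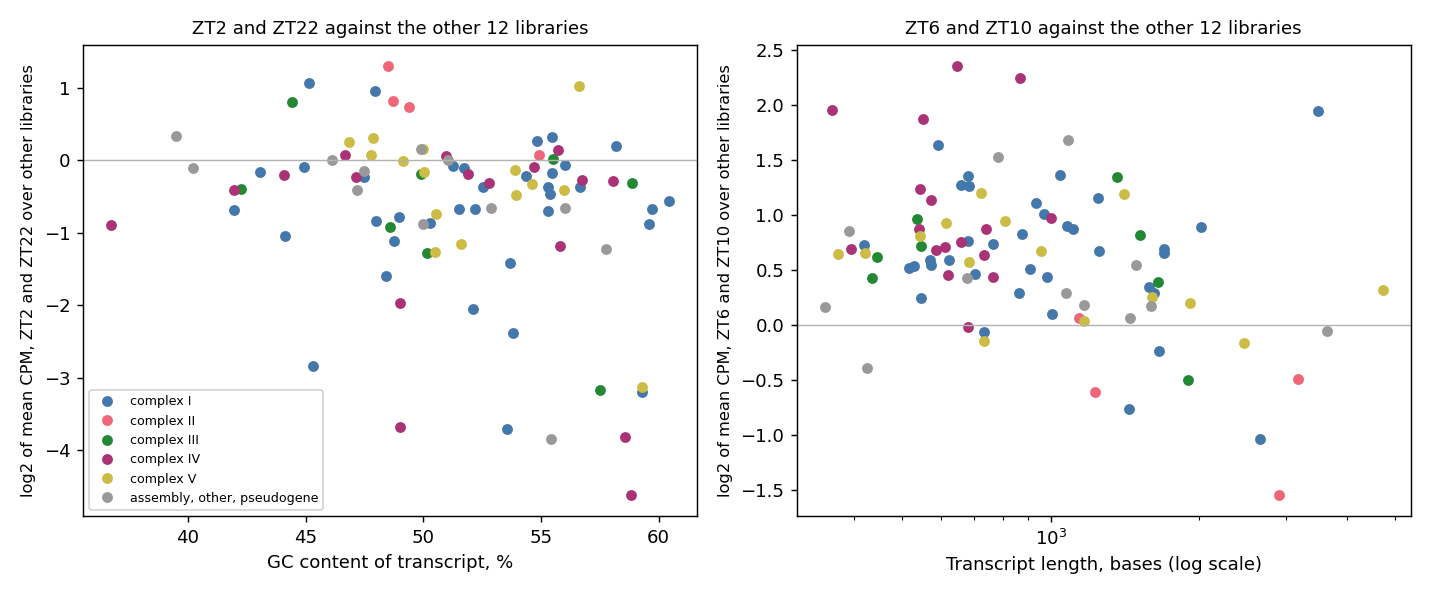
The 92 nuclear rows, one point each, coloured by complex. Left, log2 of the mean CPM at ZT2 and ZT22 over that of the 12 other libraries (vertical) against transcript GC content in % (horizontal), and right, the same for ZT6 and ZT10 against transcript length in bases on a log axis. The rows furthest below 0 on the left (*Cox6a1*, *Cox8a*, *Cox5b*, *Ndufa6*, *Ndufaf8*) range in GC content from 49.0% to 58.8%, and the longest complex II rows lie below 0 on the right.

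**Figure D4:**
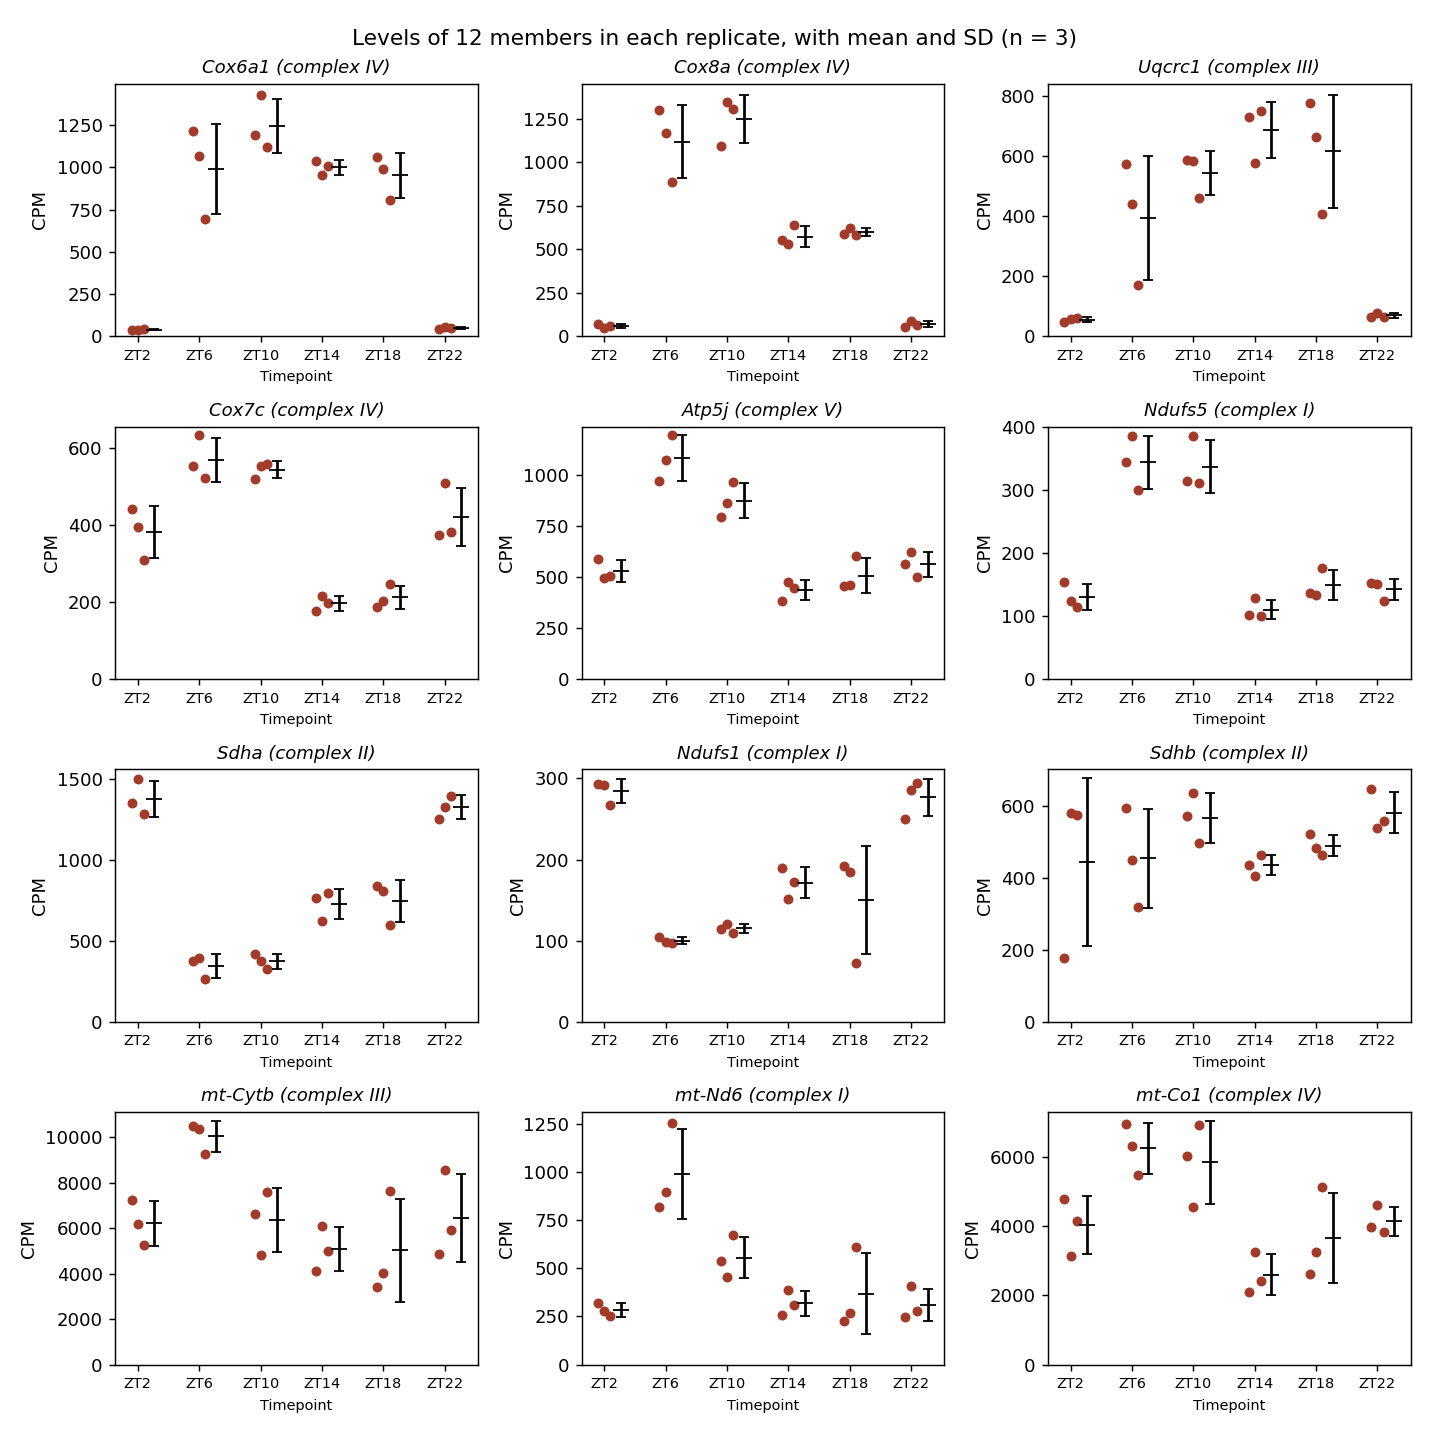
CPM (vertical axis, from 0) of 12 genes in each of the 3 replicates at the 6 timepoints, with mean and SD beside the points. The upper row shows genes low at ZT2 and ZT22, the next row genes high at ZT6 and ZT10, the next the opposite pattern of *Sdha* and *Ndufs1* beside *Sdhb*, and the lowest row 3 mitochondrial genes, in which ZT18 replicate C lies above replicates A and B.

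Promoter sequence was looked at in the RefSeq set (GRCm38.p6, 250 bases before to 50 after each start), which held 71 of the 92 nuclear rows. Exact letters were searched on both strands for NRF1 (CGCATGCG, its own reverse complement), ETS factors such as GABP (CCGGAAG), YY1 (AAGATGGCG, whose first letters can overlap the end of the ETS motif), ERR receptors (TCAAGGTCA) and the E-box of clock activators (CACGTG). NRF1, GABP and ERRα are known regulators of respiratory genes. A gene was counted when any of its promoters held the letters. NRF1 letters were found for 11 of 71 genes (15.5%, against 2.07% of all 27025 genes with a promoter and 3.62% of the 12419 tested among them), ETS letters in 18 (25.4% against 9.93% and 16.5%), YY1 letters in 8 (11.3% against 1.64% and 2.87%), ERR letters in 2 (2.82% against 0.466% and 0.370%) and E-box letters in 5 (7.04% against 8.09% and 10.8%). Over the 32851 single promoters the shares were 1.87% for NRF1, 8.86% for ETS, 1.40% for YY1, 0.423% for ERR and 7.15% for E-box letters. Of the 16 rows low at ZT2 and ZT22 that matched, 2 held NRF1 and 6 ETS letters, and of the 30 high at ZT6 and ZT10 that matched, 2 held NRF1, 6 ETS and 6 YY1 letters. The stretches of 30 bases below include *Cox6a1* (low at ZT2 and ZT22), *Atp5j* (high at ZT6 and ZT10) and *Sdhd* (complex II). *Ndufs3*, *Ndufb6* and *Atp5g3* had both profiles, so the sets of 16 and 30 rows overlap. The motif or its reverse complement is in capitals, and the sequence runs 5′ to 3′ on the strand of the gene. They lie at chr5:115349101-115349130, minus strand, chr2:90904730-90904759, minus strand, chr4:40279635-40279664, minus strand, chr16:84835105-84835134, minus strand, chr16:84835045-84835074, minus strand, chr2:73911359-73911388, minus strand, and chr9:50603877-50603906, minus strand. A match describes letters only.
Cox6a1 NRF1: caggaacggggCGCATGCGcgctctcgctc
Ndufs3 ETS: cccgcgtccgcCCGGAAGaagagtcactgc
Ndufb6 ETS: tcgtccttgttCTTCCGGtcccctccccta
Atp5j NRF1: aggccagaataCGCATGCGtacagtgcagt
Atp5j YY1: aagtgtaggaAAGATGGCGgagtcttagct
Atp5g3 ERR: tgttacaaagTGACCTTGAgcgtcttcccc
Sdhd ETS: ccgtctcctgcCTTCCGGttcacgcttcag

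The medians of complex II were opposite in sign to those of complexes I, III, IV and V for ZT6 against ZT18 and ZT10 against ZT22 in the counts, whereas III, IV and V were negative as well for ZT10 against ZT22 once a length trend was removed. For ZT2 against ZT14 the medians of II, III and V were all positive, at 0.82, 0.24 and 0.40. *Sdha*, the flavoprotein that oxidizes succinate, was at 1352, 1498 and 1281 CPM (ZT2), 1252, 1328 and 1398 (ZT22), 763, 620.3 and 798 (ZT14), 837, 806 and 597 (ZT18), 374, 396 and 261 (ZT6) and 417, 378 and 325 (ZT10). The ZT2 and ZT22 libraries were the highest and the ZT6 and ZT10 libraries the lowest of the 18, without overlap, and *Sdha* was the only nuclear row of the counts below all others at ZT6 and ZT10 (3.74% of all genes), while 4 were so in the recovered reads. Its log2 differences were -1.12 ± 0.18 (SE, q = 4.74e-04) for ZT6 against ZT18, -1.83 ± 0.18 (SE, q = 1.10e-06) for ZT10 against ZT22 and 0.92 ± 0.18 (SE, q = 0.00103) for ZT2 against ZT14. *Sdhc*, a membrane anchor that holds heme, was at 345, 321 and 286 CPM (ZT2), 322, 340.03 and 300.1 (ZT22), 165, 154 and 176 (ZT14), 197, 208 and 193 (ZT18), 211, 167 and 116 (ZT6) and 183, 235 and 159 (ZT10). Its ZT2 and ZT22 libraries lay above the rest, and it differed by -0.74 ± 0.19 (SE, q = 0.00718) and 0.94 ± 0.19 (SE, q = 0.00135) for ZT10 against ZT22 and ZT2 against ZT14. *Sdhd*, the other anchor, was at 396, 314 and 282 CPM (ZT2), 357, 443 and 337 (ZT22), 201, 198 and 204 (ZT14) and 209, 239.95 and 178 (ZT10). Its differences were -0.86 ± 0.18 (SE, q = 0.00142) and 0.72 ± 0.18 (SE, q = 0.00635) in the same comparisons, and -0.59 ± 0.18 (SE, q = 0.0271) for ZT6 against ZT18, a call that was lost under DESeq2's size factors, where it was -0.50. *Sdhb*, the iron-sulphur subunit, gave no such call (q = 0.693 over the 6 timepoints), with values from 176 CPM in ZT2 replicate A to 648 CPM in ZT22 replicate A. The medians of complex II kept their sign in all 3 comparisons with DESeq2, with a GC or length trend removed and in the recovered reads. In 5 of the 92 nuclear rows, a share near the 4.21% of all genes tested, the ZT2 and ZT22 libraries lay above all others. These rows were *Sdha*, *Sdhc*, *Ndufs1*, *Ndufa9* and *Uqcrc2*. Their median transcript length was 2661 bases and their median GC content 48.0%, against 763 bases and 51.8% in the 87 other nuclear rows.

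*Ndufs1*, the largest core subunit of complex I, was at 293, 292 and 267 CPM (ZT2), 250.3, 286 and 294 (ZT22), 104, 98.4 and 97.5 (ZT6), 115, 121 and 110.01 (ZT10), 189, 151 and 173 (ZT14) and 192, 185 and 72.99 (ZT18). It was highest at ZT2 and ZT22 and differed by -1.26 ± 0.25 (SE, q = 8.26e-04) between ZT10 and ZT22, and ZT18 replicate C, at 72.99 CPM, was the lowest library. *Ndufa9* differed by -0.94 ± 0.28 (SE, q = 0.0180) and *Uqcrc2*, the partner of *Uqcrc1* in the core of complex III, by -0.70 ± 0.21 (SE, q = 0.0174) in that comparison. *Uqcrc1* and *Uqcrc2* thus moved in opposite directions between ZT10 and ZT22. *Ndufv1*, which carries the flavin of complex I, was at 173, 185 and 187 CPM (ZT2), 321, 292 and 327 (ZT14) and 249, 187 and 113 (ZT6). ZT2 was below ZT14, with a log2 difference of -0.78 ± 0.24 (SE, q = 0.0215) that was 0.08 with a GC trend removed, and ZT6 replicate C was the lowest library.

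The JTK_CYCLE peaks of complex V fell at more than one timepoint. *Atp5b*, the catalytic β subunit, was at 1082, 927 and 1051 CPM (ZT14), 1174, 1034 and 906 (ZT18), 838, 779.7 and 669.8 (ZT6), 895, 1017 and 815 (ZT10), 376, 388 and 363 (ZT2) and 410.4, 553 and 434 (ZT22). It was lowest in the 6 libraries of ZT2 and ZT22 and its JTK_CYCLE peak was at ZT14, although its mean was highest at ZT18 (1038 CPM against 1020.1 CPM at ZT14). The difference of ZT2 from ZT14 was -1.44 ± 0.16 (SE, q = 3.78e-06). *Atp5a1*, the α subunit, was at 1055, 929 and 1108 CPM (ZT14), 1249.7, 1177 and 879.7 (ZT18), 826, 634 and 421 (ZT6) and 402, 415 and 623 (ZT2). It was lower at ZT6 than at ZT18, with a difference of -0.81 ± 0.26 (SE, q = 0.0318), and had the same JTK_CYCLE peak, with its highest mean again at ZT18 (1102 CPM against 1031 CPM at ZT14). *Atp5l*, the g subunit of the membrane part, was at 431, 443 and 428 CPM (ZT6), 339, 365 and 383 (ZT10), 378, 239 and 269 (ZT2), 111, 139 and 134 (ZT14) and 162, 153 and 255 (ZT18). ZT6 exceeded ZT18 by 1.19 ± 0.21 (SE, q = 7.44e-04), ZT2 exceeded ZT14 by 1.20 ± 0.21 (SE, q = 3.23e-04), and the peak was at ZT6, as for *Atp5h*, *Atp5j*, *Atp5j2* and *Atp5k*. The c ring of the rotor is encoded by 3 genes whose mature products are the same. *Atp5g3* was at 716, 641 and 536 CPM (ZT6), 671, 911 and 624 (ZT10), 162, 195 and 239 (ZT2) and 313, 215 and 196 (ZT22), a difference of 1.61 ± 0.20 (SE, q = 1.30e-05) between ZT10 and ZT22. *Atp5g1* reached 365 ± 32.7 CPM (SD, n = 3) at ZT10 and 208 ± 8.42 CPM at ZT14 (q = 0.0136). *Atp5g2* was at 41.6, 36.02 and 27.98 CPM (ZT2), 20.2, 25.3 and 6.01 (ZT6), 10.9, 12.6 and 12.3 (ZT14) and 42.5, 44.9 and 34.8 (ZT22), highest at ZT2 and ZT22, with a difference of 1.56 ± 0.39 (SE, q = 0.00629) between ZT2 and ZT14. Its level is uncertain, since 645 bases are identical to *Gm10175* and its ZT6 and ZT10 reads differed between both deposited tables, so that ZT10 against ZT22 was -0.46 in the counts and -6.96 in the recovered reads.

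Paralogues known as tissue forms were present beside the common ones. *Cox4i1*, the common form of subunit 4, was at 1998 ± 154 CPM (SD, n = 3) at ZT10 and 1290.1 ± 345 CPM at ZT2 (q = 0.0391, a call lost in 14 of 18 fits without one library). The hypoxia-linked form *Cox4i2* was between 0.793 and 8.78 CPM in the 18 libraries (q = 0.455). *Cox6a2* and *Cox7a1*, muscle forms, ranged from 5.24 to 24.8 CPM and from 1.95 to 12.5 CPM (q = 0.635 and 0.163). *Cox8b* did not exceed 3.63 CPM outside ZT6 replicate A, where it was 9.85 CPM (q = 0.406). None of these 4 minor forms passed the test, whereas their common partners *Cox4i1*, *Cox6a1*, *Cox7a2* and *Cox8a* did. *Cox6b1* and *Cox6b2* were both below all other libraries at ZT14 and ZT18, together with *Cox7c* and *Atp5h*, beside 1.10% of all genes. *Cox6b1* was at 443, 459 and 500.1 CPM (ZT14), 535, 508 and 532 (ZT18), 835, 789 and 676 (ZT6) and 771, 927 and 809 (ZT10), and *Cox6b2*, the testis form, at 4.80, 7.49 and 7.31 CPM (ZT14), 4.41, 7.07 and 7.75 (ZT18), 11.3, 17.3 and 17.8 (ZT6) and 15.2, 9.81 and 15.1 (ZT10). Their differences between ZT6 and ZT18 were 0.55 and 1.27 (q = 0.0147 and 0.0126). *Cox7a2* was higher at ZT6 than at ZT18 by 0.95 ± 0.16 (SE, q = 5.81e-04), and its difference between ZT10 and ZT22, 0.46 ± 0.16 (SE, q = 0.0372), became -0.15 with a length trend removed. *Cox7a2l*, a supercomplex factor, was at 219.7 ± 27.9 CPM at ZT2 and 125 ± 3.99 CPM at ZT14, a difference of 0.81 ± 0.17 (SE, q = 0.00177).

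Among the 8 assembly factors, *Ndufaf6* was at 14.6, 30.1 and 37.3 CPM (ZT6), 11.7, 13.9 and 10.1 (ZT10), 4.02, 6.18 and 5.80 (ZT14) and 4.48, 7.45 and 4.39 (ZT18), and ZT6 replicate C was the highest library and replicate A the lowest of its timepoint. The difference of ZT6 from ZT18 was 2.33 ± 0.38 (SE, q = 4.83e-04) in the counts and 1.63 (q = 0.00710) in the recovered reads. *Ndufaf2* changed with time (q = 0.0299) over a range of 1.56 times, and *Ndufaf1*, *Ndufaf3*, *Ndufaf4* and *Ndufaf5* had q between 0.120 and 0.617. Of the pseudogene-type rows, *Ndufa11b* was above all other libraries at ZT14 and ZT18 (2.51% of all genes), and *Ndufb4c*, which is identical to *Ndufb4* over 390 bases, was above them at ZT6 and ZT10 in the counts. The recovered reads turned *Ndufb4c* over, with -4.52 for ZT6 against ZT18 and -5.51 for ZT10 against ZT22 (q = 6.28e-06 and 3.14e-07), against 1.06 and 0.37 in the counts. *Ndufs6b* is 96.6% identical to *Ndufs6*. In all, 26 of the 92 nuclear rows had a stretch of at least 100 bases with 95% identity or more in another gene. They include *Cox7c*, *Cox6c*, *Ndufs5*, *Ndufab1*, *Ndufs3*, *Ndufa12*, *Uqcrb*, *Atp5g1*, *Atp5l* and *Cox7a2l*, whose levels given above are uncertain in the same way. The exons of 27 nuclear rows overlapped a gene of the other strand. Whether the counting used strand is not given in the sources used here, so reads of such pairs cannot be told apart.

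Between neighbouring timepoints, edgeR called 0 of the 92 nuclear and 0 of the 8 mitochondrial rows for ZT14 against ZT18 (0.412% of all genes higher and 0.158% lower at ZT14), for ZT22 against ZT2 (0% and 0.0317%) and for ZT6 against ZT10 (0.0211% and 0.0264%). At an unadjusted p under 0.05 there were 23 nuclear and 0 mitochondrial rows for ZT14 against ZT18, 0 and 0 for ZT22 against ZT2, and 5 and 5 for ZT6 against ZT10, beside 13.5%, 3.59% and 10.8% of all genes. DESeq2 called *Atp5e*, *Cox7a2l*, *Ndufa7*, *Ndufab1* and *Uqcr10* lower at ZT14 than at ZT18 and *Ndufaf6* and *mt-Co3* higher at ZT6 than at ZT10, and 0 rows between ZT22 and ZT2. Over the 18941 genes it called 842 in either direction for ZT14 against ZT18, 246 for ZT6 against ZT10 and 34 for ZT22 against ZT2. The median difference of the nuclear rows was -0.23 for ZT14 against ZT18, 0.15 for ZT22 against ZT2 and -0.03 for ZT6 against ZT10, beside 0.01, 0.01 and -0.03 over all genes. For the mitochondrial rows it was -0.02, 0.11 and 0.70, with all 8 higher at ZT6 than at ZT10. These comparisons lie within the pairs of timepoints that the study's plot draws together.

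Of the 8 mitochondrial rows, 6 had their highest mean at ZT6. *mt-Cytb*, the catalytic core of complex III and the most read of the 8 rows, was at 10473, 10358 and 9262 CPM (ZT6), 6626, 4819 and 7590.4 (ZT10), 7235, 6174 and 5241 (ZT2), 4133, 6081 and 5014 (ZT14), 3429.6, 4028 and 7634 (ZT18) and 4849, 8578 and 5920.1 (ZT22). All ZT6 libraries exceeded the 15 others, and ZT18 replicate C was at 7634 CPM against 3429.6 CPM in replicate A. ZT6 exceeded ZT18 by 1.00 ± 0.28 (SE, q = 0.0168), and the q over the 6 timepoints was 0.0410, which was lost in 10 of 18 fits without one library, where it reached 0.122. *mt-Co1*, the catalytic core of complex IV, was at 6943, 6322 and 5474 CPM (ZT6), 6028, 4562 and 6926 (ZT10), 2102, 3248 and 2426 (ZT14) and 2627, 3236 and 5125 (ZT18). ZT6 and ZT10 were high, ZT14 was low, and the difference of ZT6 from ZT18 was 0.77 ± 0.24 (SE, q = 0.0315). *mt-Nd6*, the complex I subunit encoded on the other strand, was at 819, 896 and 1254 CPM (ZT6), 539, 457 and 672 (ZT10), 256, 388 and 312 (ZT14), 225, 269 and 612 (ZT18), 248, 406 and 278 (ZT22) and 321, 279.5 and 249.8 (ZT2). Its ZT6 libraries were the highest of the 18, and ZT6 exceeded ZT18 by 1.42 ± 0.31 (SE, q = 0.00422). *mt-Nd5* was at 3693, 3643 and 2764 CPM (ZT6), 1219.6, 1341 and 2836 (ZT18) and 1877, 3658 and 2438 (ZT22), with overlap between these timepoints. It did not pass over the 6 timepoints (q = 0.116), although ZT6 against ZT18 was 0.90 ± 0.30 (SE, q = 0.0399), a call kept in 10 of 18 fits without one library. In the recovered reads *mt-Nd5* passed both, with 1.13 for ZT6 against ZT18 (q = 0.0114) and q = 0.0363 over the 6 timepoints. *mt-Nd5* and *mt-Nd6* overlap on opposite strands, so reads in the overlap cannot be told apart where strand was not used. The row *mt-Nd4l* was at 4732, 4544 and 5670.3 CPM (ZT6), 1594, 2137 and 1804 (ZT14) and 1229, 1449 and 3063 (ZT18), and ZT6 exceeded ZT18 by 1.38 ± 0.30 (SE, q = 0.00400).

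*mt-Nd3*, a complex I subunit, had another course and was at 41.6, 29.01 and 17.3 CPM (ZT2), 24.4, 43.1 and 29.3 (ZT22), 146, 185 and 146 (ZT6), 104, 75.6 and 146 (ZT10), 64.5, 115 and 111 (ZT14) and 68.7, 82.3 and 172 (ZT18). All 6 libraries of ZT2 and ZT22 lay below the rest, with differences of 1.75 ± 0.37 (SE, q = 0.00180) between ZT10 and ZT22 and -1.72 ± 0.37 (SE, q = 0.00244) between ZT2 and ZT14. *mt-Co2* and *mt-Co3*, the other core subunits of complex IV, were read at only 2.71, 4.15 and 3.30 CPM (ZT14), 2.21, 1.66 and 1.28 (ZT6) and 0.452, 0.215 and 0.193 (ZT2) for *mt-Co2* and 4.99, 8.24 and 7.94 CPM (ZT14), 5.86, 5.59 and 5.96 (ZT6) and 1.41, 1.08 and 1.00 (ZT2) for *mt-Co3*. ZT2 was below ZT14 in both, with differences of -3.55 ± 0.76 (SE, q = 0.00222) and -2.60 ± 0.46 (SE, q = 4.17e-04), and both had their JTK_CYCLE peak at ZT14. Near-identical copies elsewhere in the genome share sequence with these rows. *mt-Co2* matches *Gm28661* over 681 bases and *mt-Co3* matches *Gm28437* over 783 bases, both at 100%, and *mt-Nd3* matches *Gm28438* over 345 bases at 99.7%. *mt-Co1* matches *Gm13340* at 97.6% over its 1545 bases and *mt-Nd5* matches *Gm4076* at 95.2% over 954 bases, while *mt-Cytb* and *mt-Nd6* had no such match. How reads within such matches were assigned is not given in the sources used here, so levels of the matched rows are uncertain.

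Some count rows held the reads of a neighbour. In every library the counts of *mt-Nd4l* were 1.00 to 1.005 times the reads of *mt-Nd4* recovered from the normalized table, which listed *mt-Nd4l* itself with a median of 0.5 reads. Counts listed under the transfer RNA *mt-Ti* were 1.004 to 1.019 times the recovered reads of *mt-Nd1*, those under *mt-Tw* 1.00 to 1.003 times those of *mt-Nd2*, and those of *mt-Co3* 1.04 to 1.44 times the recovered sum of *mt-Co3*, *mt-Atp6* and *mt-Atp8*. The row named *mt-Nd4l* is therefore read here as *mt-Nd4*. In the recovered reads *mt-Nd1* was at 9387 ± 378 CPM (SD, n = 3) at ZT6 and 2951 ± 555 CPM at ZT14 (q = 1.87e-04), *mt-Nd2* at 7092 ± 1439 CPM and 1709.9 ± 361 CPM (q = 1.77e-04), and *mt-Nd4* at 5509 ± 667 CPM and 1750.4 ± 265 CPM (q = 3.38e-04). All 3 cycled with a peak at ZT6. *mt-Atp6*, a subunit of the proton channel of complex V, had its highest mean, 2.08 CPM, at ZT14 (q = 0.00836 for *mt-Atp6*). Its median was only 20.5 recovered reads, so its course is uncertain. *mt-Atp8*, with a median of 3 reads, did not pass (q = 0.222).

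Both genomes took their highest mean share of reads at ZT6. The 92 nuclear rows made up 4.04% ± 0.0583 (SD, n = 3) of counted reads at ZT6, 3.97% ± 0.254 at ZT10, 3.12% ± 0.235 at ZT18, 2.79% ± 0.180 at ZT22, 2.70% ± 0.149 at ZT14 and 2.51% ± 0.139 at ZT2. All 6 libraries of ZT6 and ZT10, at 3.71% or more, lay above all others, at 3.39% or less. The 8 mitochondrial rows made up 2.55% ± 0.105 at ZT6, 1.77% ± 0.423 at ZT10, 1.58% ± 0.388 at ZT22, 1.48% ± 0.235 at ZT2, 1.33% ± 0.647 at ZT18 and 1.23% ± 0.254 at ZT14. The 3 ZT6 libraries, at 2.47% or more, lay above the 15 others, at 2.17% or less, whereas ZT10 overlapped with every other timepoint except ZT6. At ZT18 the replicates were at 0.865%, 1.05% and 2.07%, the last being replicate C.

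The log2 ratio of mitochondrial to nuclear reads was -0.70, -0.73 and -0.57 in replicates A, B and C of ZT6 and -1.04, -1.67 and -0.87 in those of ZT10. It was -1.36, -0.90 and -1.22 at ZT14 and -1.79, -1.51 and -0.72 at ZT18. It was -1.17, -0.53 and -0.83 at ZT22 and -0.48, -0.87 and -0.97 at ZT2. Replicates were spread most at ZT18, and the ZT6 values overlapped with those of ZT18, ZT22 and ZT2 but not with those of ZT10 or ZT14. The difference of the means was 0.67 for ZT6 against ZT18, 0.53 for ZT6 against ZT10, -0.35 for ZT10 against ZT22 and 0.39 for ZT2 against ZT14. Medians over the rows give the rarely read *mt-Co2* and *mt-Co3*, and also *mt-Nd3*, the same weight as *mt-Cytb*. With such medians in place of sums, the last difference was -0.20. These sums lack *mt-Nd1* and *mt-Nd2*. Over all mitochondrial messenger RNAs in the recovered reads the ratio was 0.10, 0.09 and 0.36 at ZT6, above the 15 other libraries, of which the highest was 0.02. At ZT6 and ZT10, however, counts of the nuclear rows exceeded their recovered reads by a median log2 ratio of 0.17, against 0.002 for *mt-Cytb*. Fewer recovered nuclear reads raise the ratio at these timepoints, and how far the separation rests on this was not tested. ZT18 replicate C decided part of the contrast, since without it the median of the mitochondrial rows for ZT6 against ZT18 was 1.24 with 6 rows higher, and without ZT18 replicate A it was 0.63 with 2 higher.

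**Figure D5:**
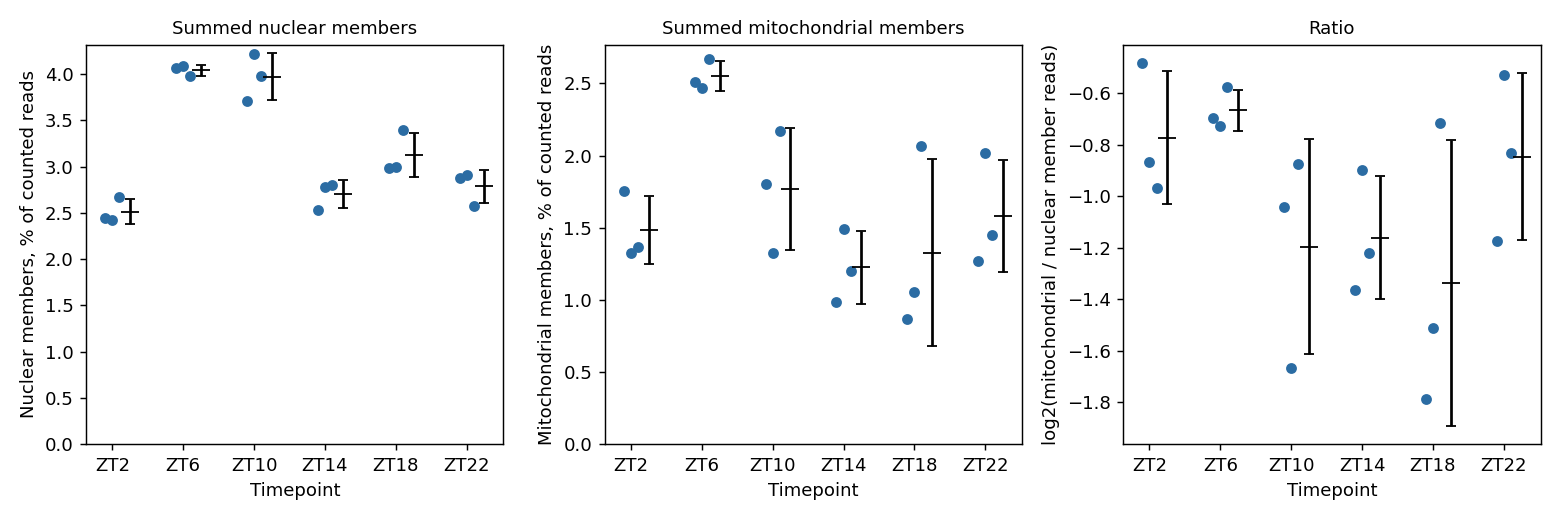
Summed reads of the 92 nuclear rows (left) and the 8 mitochondrial rows (middle) as % of counted reads, and the log2 ratio of mitochondrial to nuclear reads (right), at each timepoint. Points are replicates and bars mean and SD (n = 3). Nuclear shares are high at ZT6 and ZT10, the mitochondrial share is highest at ZT6, and the ratios of ZT18 run from -1.79 to -0.72.

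Per kilobase of transcript, levels differed widely within each complex. The median over the nuclear rows was 339 CPM per kb for complex I, 246 for II, 482 for III, 472 for IV and 521 for V, and 62.7 for the assembly factors. *Cox4i1* was the highest nuclear row, at 2057 CPM per kb, ahead of *Ndufa4* at 1522 and *Uqcr10* at 1479. On the same scale *mt-Cytb* was at 5703, *mt-Co1* at 2858 and *mt-Nd5* at 1319.

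The 2 deposited tables did not hold the same reads at ZT6 and ZT10, where the counts exceeded the recovered reads by a median log2 ratio of 0.13 over all shared genes with over 500 reads and 0.17 over the nuclear rows, against 0 at the other timepoints. In the recovered reads 69 nuclear rows changed with time, 66 of them shared with the counts, and 7 mitochondrial rows, 6 of them shared. With *mt-Nd4* in place of the near-empty recovered row of *mt-Nd4l*, the number of mitochondrial rows was 8. *Ndufa4*, *Atp5mpl*, *Ndufb9*, *Ndufv1* and *Ndufaf2* lost the call there (q = 0.141, 0.128, 0.274, 0.0568 and 0.279). Of the differences given above for ZT6 against ZT18, those of *Sdhd*, *Cox6b1* and *Atp5a1* did not pass in the recovered reads, at -0.39, 0.27 and -0.70 (q = 0.120, 0.192 and 0.0524), nor did that of *Cox7a2* for ZT10 against ZT22, at 0.37 (q = 0.0922). Between ZT10 and ZT22 the recovered reads gave 39 nuclear rows higher and 9 lower, and 3 mitochondrial rows higher. Of the 18539 genes tested in both tables, 2682 were higher and 2420 lower there.

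Other genes of the pathway, in lists chosen with earlier results of these data known, gave the surroundings. Of the cytochromes, *Cyc1*, which docks on complex III, was at 108 ± 20.7 CPM (SD, n = 3) at ZT6 and 38.5 ± 2.59 CPM at ZT2 (q = 9.28e-06), and *Cycs*, cytochrome c, had q = 0.448. Among 25 further assembly factors tested (of 30 listed), 16 changed with time, beside 44.0% of all genes. Between ZT6 and ZT18, 6 were higher and 4 lower (8.74% and 12.0% of all genes), with a median of -0.22 beside -0.18 over all genes. *Sdhaf4*, an assembly factor of complex II, was higher at ZT6 than at ZT18 by 0.82 (q = 0.00105), while *Sdhaf2* differed by -0.57 (q = 0.0193). Of 13 citric acid cycle genes 11 changed with time (44.0% of all genes), and between ZT6 and ZT18 0 were higher and 8 lower (8.74% and 12.0%), with a median of -0.72 beside the -0.18 of all genes. *Ogdh*, a subunit of the oxoglutarate dehydrogenase complex, was at 120.3 ± 41.5 CPM at ZT6 and 744 ± 129.97 CPM at ZT2, and citrate synthase, *Cs*, at 99.9 ± 17.6 CPM and 521 ± 56.1 CPM at ZT6 and ZT22 (q = 4.36e-06 and 1.61e-07). *Fh1*, fumarase, and *Sucla2*, of succinate-CoA ligase, were low at ZT2, with differences of -2.17 and -2.13 against ZT14 (q = 3.34e-06 and 3.73e-08). Of 8 nuclear regulators 3 changed with time, beside the same 44.0%. *Esrra*, which encodes ERRα, was at 10.3 ± 2.81 CPM at ZT6 and 0.894 ± 0.366 CPM at ZT2, *Nrf1* at 32.9 ± 4.44 CPM at ZT14 and 10.2 ± 4.29 CPM at ZT2, and *Ppargc1b* at 24.2 ± 8.52 CPM at ZT14 and 4.75 ± 0.883 CPM at ZT2. *Gabpa*, *Yy1* and *Ppargc1a* did not pass (q = 0.136, 0.100 and 0.0578).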

How the data were processed

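RNA of the SCN was measured in 18 libraries. Per the study's methods and the submitters' processing notes, the authors aligned reads with GSNAP to mm10 (GRCm38), counted them with HTSeq 0.5.4p1 and normalized with DESeq2. The deposited raw table holds counts per gene, with lanes summed. A further deposited table holds normalized signal, counts divided by a size factor, from which whole reads were recovered as a check. No column was unused.

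Genes read at least once in over 6 libraries were fitted with edgeR 4.0.16 (TMM, quasi-likelihood F-test, R 4.3.3), with Benjamini–Hochberg adjustment over the 18941 genes tested and a threshold of 0.05. Rhythm was scored by JTK_CYCLE (24 hr, exact null, Bonferroni over 6 lags), written in Python 3.11.15. The scripts were tested on simulated data. Genes named by rule were the mitochondrial rows, a fixed list of core subunits, the tissue paralogues, the 3 nuclear rows of each complex with the smallest p of change with time, and up to 2 rows with the highest and 2 with the lowest called difference per comparison whose replicates did not overlap. Other rows were named after their values were seen, as examples of a profile or of a limit. The members and lists were chosen with earlier results of these data known. Replicates are separate pools of mice. Transcript length, GC content, strand overlap and near-identical copies came from GENCODE M21 and BLAST 2.17.0. Alternatives were DESeq2 1.42.0, other scalings and filters, GC and length trends, a replicate block, recovered reads and single libraries or pairs of timepoints left out. The GC trend and the fits without pairs of timepoints were chosen after seeing the data. At these depths counting error was small for most rows, but *mt-Co2* and *mt-Co3* had few reads. The values of 1 complex I row, which stays in the counts, are not reported here.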

Additional observations from a re-analysis of the deposited data

How the results depend on the processing

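Counts below are rows called higher or lower at the earlier named timepoint, and medians are log2 differences. Beside the fits that leave out single libraries, 471 of 536 summary values stayed within their limits and 65 moved. With DESeq2's size factors ZT6 against ZT18 gave 2 nuclear rows lower, ZT2 against ZT14 a nuclear median of 0.25 and 1 mitochondrial row higher, and ZT14 against ZT18 a nuclear median of -0.27. DESeq2's own tests gave 34 nuclear rows higher and a median of 0.25 for ZT2 against ZT14, 5 nuclear rows lower and -0.27 for ZT14 against ZT18, 1 nuclear and 1 mitochondrial row higher for ZT6 against ZT10, and 3 and 1 mitochondrial rows higher for ZT10 against ZT22 and ZT2 against ZT14. Upper-quartile scaling gave 37 nuclear rows higher, a median of 0.34, a mitochondrial median of 0.18 and 1 mitochondrial row higher for ZT2 against ZT14, a nuclear median of 0.63 and 1 row lower for ZT6 against ZT18, and -0.28 for ZT14 against ZT18. Normalization without mitochondrial genes gave 0.25 and 1 mitochondrial row higher for ZT2 against ZT14 and -0.29 for ZT14 against ZT18. With no filter these were 0.24, 1 and -0.29, with 2 nuclear rows lower for ZT6 against ZT18. With at least 10 counts in every replicate, ZT2 against ZT14 gave 0.17 and 1 mitochondrial row higher, and ZT10 against ZT22 gave 3. The length trend gave nuclear medians of -0.017 for ZT14 against ZT18, 0.18 for ZT2 against ZT14, 0.24 with 22 higher for ZT6 against ZT18 and -0.051 with 18 higher and 14 lower for ZT10 against ZT22, with a mitochondrial median of 0.085 there, 1 mitochondrial row higher for ZT2 against ZT14 and 2 cycling. The GC trend gave nuclear medians of 0.26 for ZT2 against ZT14, 0.68 with 1 lower for ZT6 against ZT18 and -0.29 for ZT14 against ZT18, a mitochondrial median of -0.42 for ZT2 against ZT14 and 4 mitochondrial rows higher for ZT10 against ZT22. Recovered reads gave 7 nuclear rows lower for ZT6 against ZT18, a mitochondrial median of -0.95 for ZT2 against ZT14 and 3 mitochondrial rows higher for ZT10 against ZT22. That median includes the recovered row of *mt-Nd4l*, which held a median of 0.5 reads. With *mt-Nd4* in its place, a setting chosen after seeing the data, it was -0.04, and 3 mitochondrial rows were higher for ZT10 against ZT22. Fitting only the 6 libraries compared gave 17 nuclear rows higher, 1 lower and 0 mitochondrial rows higher for ZT6 against ZT18, with 3 and 1 mitochondrial rows higher for ZT10 against ZT22 and ZT2 against ZT14. Without ZT14 and ZT18, 25 nuclear and 2 mitochondrial rows cycled and 2 mitochondrial rows were higher for ZT10 against ZT22. Without ZT2 and ZT22, 4 mitochondrial rows changed with time and 3 cycled. Without ZT6 and ZT10, 43 nuclear and 3 mitochondrial rows changed with time and 3 mitochondrial rows cycled. Over protein-coding reads the mitochondrial share at ZT6 was 2.87%, and with medians in place of sums the ratio of ZT2 against ZT14 was -0.20. Among the genes that the rule named, called differences that changed sign were *Cox7a2* for ZT10 against ZT22 (-0.15, length trend), *mt-Nd4l* for ZT6 against ZT18 (-0.18 in its near-empty recovered row, 1.61 with *mt-Nd4* in its place) and *Ndufv1* for ZT2 against ZT14 (0.076, GC trend). The causes were not tested, beyond the fewer libraries of the smaller fits. Leaving out one library gave 67 to 78 nuclear rows that changed with time, 43 to 54 nuclear and 3 to 7 mitochondrial rows that cycled, 25 to 38 nuclear rows higher, 1 to 8 lower and 2 to 6 mitochondrial rows higher for ZT6 against ZT18, and 26 to 41 nuclear and 1 to 3 mitochondrial rows higher for ZT10 against ZT22. For ZT2 against ZT14 it gave 12 to 31 nuclear and 0 to 1 mitochondrial rows higher, nuclear medians of 0.094 to 0.21 and mitochondrial medians of -0.16 to 0.19, and for ZT14 against ZT18 nuclear medians of -0.29 to -0.20. The replicate letters did not pair the samples (median correlation of deviations -0.003 over 45 pairs with the same letter and -0.001 over 90 others). A replicate block gave 73 nuclear and 7 mitochondrial rows that changed with time and 2 mitochondrial rows higher for ZT10 against ZT22.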

Other observations

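Of the factors that copy and express mitochondrial DNA, 19 were tested (of 21 listed) and 9 changed with time, beside 44.0% of all genes. At ZT6 2 were higher and 4 lower than at ZT18 (8.74% and 12.0% of all genes). The medians were -0.04 for ZT6 against ZT18, -0.36 for ZT10 against ZT22 and 0.51 for ZT2 against ZT14, beside -0.18, -0.02 and -0.05 over all genes. *Slirp*, which with *Lrpprc* stabilizes mitochondrial messenger RNA, was at 294 ± 43.4 CPM (SD, n = 3) at ZT6 and 81.03 ± 13.9 CPM at ZT14 (q = 2.90e-06), and *Lrpprc* at 51.97 ± 3.96 CPM and 31.7 ± 3.69 CPM (q = 0.0182). *Polrmt*, the mitochondrial RNA polymerase, was highest at ZT14, at 34.5 ± 5.35 CPM against 6.58 ± 2.23 CPM at ZT2 (q = 9.61e-05). *Mtpap*, the mitochondrial poly(A) polymerase, was at 16.7 ± 5.98 CPM at ZT6 and 56.5 ± 4.37 CPM at ZT2 (q = 1.76e-04), and *Tfam*, which packages mitochondrial DNA, at 54.7 ± 7.05 CPM at ZT10 and 25.2 ± 7.36 CPM at ZT2 (q = 0.0159). The ribosomal RNAs of the mitochondrion were higher at ZT6 than at ZT18 by 1.44 for *mt-Rnr1* and 1.17 for *mt-Rnr2* (q = 0.00460 and 0.0117), and higher at ZT10 than at ZT22 by 1.36 and 1.81 (q = 0.00381 and 2.51e-04).

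Some subunits were listed only in the normalized table and are given as recovered reads. *Ndufb2*, of complex I, was at 26.9 ± 3.12 CPM (SD, n = 3) at ZT2 and 27.99 ± 2.03 CPM at ZT22, against 641 ± 26.5 CPM at ZT6, 523 ± 34.9 CPM at ZT10, 160.2 ± 4.80 CPM at ZT14 and 199 ± 13.96 CPM at ZT18 (q = 2.03e-13). *Atp5o*, the subunit of complex V that confers oligomycin sensitivity, was at 756 ± 72.2 CPM at ZT2 and 417 ± 16.2 CPM at ZT14 (q = 0.00148), and the assembly factor *Ndufaf7* at 95.96 ± 7.86 CPM at ZT22 and 52.3 ± 0.927 CPM at ZT10 (q = 8.86e-05). *Cox14*, an assembly factor of complex IV, was at 30.7 ± 7.06 CPM at ZT2 and 313 ± 15.04 CPM at ZT10 (q = 8.87e-11).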
